A study of Mus musculus with 79 samples.

Results

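The genes described here are the replication-dependent histone genes of the mouse, taken as every row of the adult hypothalamus expression table whose name begins with Hist1h, Hist2h, Hist3h or Hist4h. The table held 68 such genes among 25965. They comprised 55 Hist1h genes on chromosome 13, 10 Hist2h genes on chromosome 3, the Hist3h pair Hist3h2a and Hist3h2ba on chromosome 11, and Hist4h4 on chromosome 6. By product, 6 encode linker histone H1, 19 H2A, 18 H2B, 12 H3 and 13 H4. The members were chosen by name and no threshold was applied, but the family was taken up with its expression and mark values in these libraries known, so its values are given as a description, and the tests named are those of fits over all genes or promoters.

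The study asked what a mutated PWWP domain of the DNA methyltransferase DNMT3A does to the adult hypothalamus. Expression was measured by RNA-seq in 5 +/+ and 4 Δ/D329A libraries, and H3K4me3, H3K27me3, H3K36me3 and input were measured by native ChIP-seq in 3 +/+ and 3 Δ/D329A libraries each, all at 14 weeks of age. In Δ/D329A mice the maternal Dnmt3a allele lacked exon 18, removed in the oocyte by Cre under the Zp3 promoter and so absent from every cell, and the paternal allele carried the point mutation D329A, which left it as the sole functional copy. The +/+ mice carried wild-type alleles on both sides, and all mice were on a C57BL/6 background. Mice with the deletion or the point mutation alone were not analysed here, so the effects of these alleles cannot be told apart. The study describes its ChIP-seq mice as male and gives the sex of the expression mice in more than one way, so expression and marks may come from different animals.

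Replication-dependent histone genes supply the histones that package newly copied DNA, and they are transcribed together at the onset of S phase under the coactivator NPAT. They are short genes without introns for the most part, they lie in clusters with H2A and H2B genes often placed head to head, and their transcripts end in a stem-loop in place of a poly(A) tail. Most cells of the adult brain no longer divide and draw on replacement histones from separate genes, but several cluster genes, linker histone genes above all, are also transcribed outside S phase. Several members have a polyadenylated transcript too. The RNA-seq libraries here were made from ribosome-depleted total RNA, without poly(A) selection. H3K4me3 marks active and poised promoters, H3K36me3 the bodies of transcribed genes, and H3K27me3 is laid down by Polycomb repressive complex PRC2 over silent genes.

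The chromosome 13 genes fell into blocks, taken as runs whose neighbouring starts lie at most 300 kb apart. Block 1 held 23 members over 328 kb (GRCm38 chr13:21715763-22043676), block 2 held 31 members over 404 kb (chr13:23531044-23934851), and Hist1h2al stood alone at chr13:51202688-51203065. Hist1h1t in block 2 encodes the testis-specific H1, and Hist1h2ba and Hist1h2aa at its far end encode histones of the male germ line. Promoter sequences were found in RefSeq (GRCm38.p6) for 61 of the 68 members. TATAAA, the TATA box, stood in 57.4% of these windows of 300 bases, which run from 250 before to 50 after the start, against 13.6% of all 32851 RefSeq windows of that length. CCAAT stood in 85.2% against 37.4%, and the octamer ATTTGCAT, the recognition word of POU2F1, in 21.3% against 1.74%, all searched on both strands. The octamer was found in 7 of 17 H2A and 6 of 16 H2B windows and in none of the 6 H1, 10 H3 and 12 H4 windows, and CCAAT was found in all H1, H2A, H2B and H3 windows but in 3 of 12 H4 windows. A CCAAT that runs into an octamer shares the letters AT with it, and a match is a description of the sequence only.

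Shown first are the stretches between the RefSeq starts of 3 head-to-head H2A and H2B pairs, read on the plus strand. The pairs are Hist1h2an and Hist1h2bp (chr13:21787249-21787487) and Hist1h2ae and Hist1h2bg (chr13:23571221-23571399), whose promoters had some of the highest H3K27me3 differences given below, and the germ-line pair Hist1h2ba and Hist1h2aa (chr13:23934157-23934436), whose promoters did not. The last are the 150 bases before the start of the H1 gene Hist1h1b (chr13:21780626-21780775, minus strand), where H3K4me3 differed most, and of Hist1h4c (chr13:23698459-23698608, minus strand). Hist1h4c had the highest mean expression over all libraries, while in +/+ alone Hist1h4d was higher. Capitals mark the 3 words in either orientation, so that the TATA box is also read as TTTATA, the CCAAT box as ATTGG and the octamer as ATGCAAAT.
Hist1h2an/Hist1h2bp: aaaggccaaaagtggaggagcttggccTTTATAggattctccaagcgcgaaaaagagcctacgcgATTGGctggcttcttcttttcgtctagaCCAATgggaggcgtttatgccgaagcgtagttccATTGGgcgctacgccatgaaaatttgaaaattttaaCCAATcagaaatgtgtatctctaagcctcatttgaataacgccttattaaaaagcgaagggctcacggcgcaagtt
Hist1h2ae/Hist1h2bg: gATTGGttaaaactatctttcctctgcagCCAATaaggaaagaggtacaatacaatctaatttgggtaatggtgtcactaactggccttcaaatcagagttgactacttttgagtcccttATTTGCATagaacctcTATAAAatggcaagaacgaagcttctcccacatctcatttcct
Hist1h2ba/Hist1h2aa: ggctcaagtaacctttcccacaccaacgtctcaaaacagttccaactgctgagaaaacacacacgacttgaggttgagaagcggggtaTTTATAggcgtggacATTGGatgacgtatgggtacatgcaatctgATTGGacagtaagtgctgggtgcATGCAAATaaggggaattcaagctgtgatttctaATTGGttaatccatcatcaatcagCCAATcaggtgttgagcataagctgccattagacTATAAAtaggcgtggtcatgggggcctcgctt
Hist1h1b: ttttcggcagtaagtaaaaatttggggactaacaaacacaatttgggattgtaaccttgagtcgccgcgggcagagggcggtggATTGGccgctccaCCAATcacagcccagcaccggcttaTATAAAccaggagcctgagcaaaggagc
Hist1h4c: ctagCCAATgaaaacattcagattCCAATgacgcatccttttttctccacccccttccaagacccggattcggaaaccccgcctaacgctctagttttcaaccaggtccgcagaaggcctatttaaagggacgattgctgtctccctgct
The pair of high H3K27me3 difference in block 2 and the germ-line pair both held all 3 words, and the block 1 pair held the TATA and CCAAT boxes but not the octamer. No TATAAA was found in the Hist1h4c stretch.

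The RNA-seq libraries held 10519195 to 18386073 reads, of which 32.5% to 52.9% fell on genes in +/+ and 36.4% to 44.5% in Δ/D329A. The ChIP-seq libraries held 12676361 to 30207875 reads. The first Δ/D329A H3K4me3 library stood apart, with a median of 0.314 RPM (reads per 1000000 reads of the library) per tile of 2 kb against 0.0789 to 0.200 in the other 5. In the H3K27me3 libraries the mean of mitochondrial tiles was 10.3, 4.07 and 33.1 RPM in +/+ and 4.30, 36.8 and 18.1 RPM in Δ/D329A, so that coverage there did not follow the genotype. Dnmt3a itself, which the study describes as altered by a deleted exon and a point mutation, stood at 1.71 to 2.11 log2 RPKM in +/+ and 1.51 to 1.72 in Δ/D329A (difference −0.28, SE 0.13, limma adjusted p = 0.355), a gene-level value that hardly checks those alleles. All 14 defining genes of hypothalamic neurons had reads. Per the reporting summary, animals came from a range of litters and each ChIP-seq sample was used for all 3 marks and input, so the marks share their 3 animals per genotype.

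Transcripts of the replication-dependent genes were present in every library and came from all 5 histone classes. Per 1000000 reads on genes, members took 347 to 639 in +/+ and 557 to 646 in Δ/D329A. The values of the 5 +/+ libraries were 639, 487, 526, 432 and 347, and those of the 4 Δ/D329A libraries 578, 557, 646 and 609. The fourth and the fifth +/+ libraries, which had the lowest share, were also those with the lowest percentages of reads on genes (35.6% and 32.5%). The second Δ/D329A library had a percentage near theirs (36.4%) but a share of 557. The part of this in the differences below was not tested. In bulk tissue, fewer cells of a type and less RNA per cell cannot be told apart.

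Of the 68 members, 64 reached 0.1 RPKM in at least 4 libraries and were tested by limma among 17839 genes, and none of them was called at an adjusted p under 0.01, against 19 genes called in all (0.107%). At an unadjusted p under 0.05, 4 members were higher in Δ/D329A and 0 lower, against 4.61% of all genes tested higher and 3.02% lower, so that the count of members lay near the background. The lowest adjusted p of a member was 0.355. DESeq2 on the recovered reads called 2 members, Hist2h2bb and Hist3h2ba, both higher (0.647% of all genes tested higher, 1.22% in either direction), and edgeR called 0 of the 31 it tested (0.547% of genes). The log2 difference was above 0 in 49 of the 64 with a median of 0.22, and in 39 of the 54 that had a read with a median of 0.18, against 10638 of 17839 and a median of 0.06 over all genes tested. All genes tested include 1724 without a read, whose difference of 0.37 comes from library size alone. Without the fifth +/+ library the log2 difference was above 0 in 38 of the 64 members with a median of 0.064, against −0.02 over all genes, and without the fourth in 44 with a median of 0.11. With DESeq2 it was above 0 in 35 of 57 members tested with a median of 0.11, against 0.02 over all genes tested. With edgeR it was above 0 in 26 of 31 with a median of 0.19, against −0.002. A pseudocount of 1 RPKM gave 48 of 64 and a median of 0.05, against 0.03. All Δ/D329A libraries lay above all +/+ libraries at 1 member, Hist1h2bn, against 1.78% of all genes tested, but 5 of its 9 libraries had 0 reads, with values set by the 0.9-read floor and library size, and below them at 0 members (1.23%).

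Linker histone genes came first among the roles, since H1 binds the DNA between nucleosomes and its genes include those most used outside S phase. Hist1h1e stood at 5.16, 4.70, 5.12, 4.24 and 3.91 log2 RPKM in +/+ and at 4.83, 4.52, 4.68 and 4.62 in Δ/D329A (difference 0.03, SE 0.26). Hist1h1c stood at 3.96, 3.55, 3.19, 3.04 and 2.70 in +/+ and at 3.27, 3.49, 3.65 and 3.38 in Δ/D329A (difference 0.16, SE 0.23). For both genes the Δ/D329A values lay inside the range of the +/+ values. Hist1h1a differed by 0.15 (SE 0.29). Hist1h1d stood at 0.61, −0.09, −0.68, −1.03 and −1.05 in +/+ and between −1.01 and −0.82 in Δ/D329A (difference −0.46, SE 0.33, limma adjusted p = 0.598), again with overlap. Hist1h1b, which encodes the H1.5 subtype of dividing cells, had 24, 11, 13, 9 and 5 reads in +/+ and 7, 0, 6 and 6 in Δ/D329A. Its log2 RPKM values of 0.81, −0.08, 0.39, −0.36 and −1.32 against −0.64, −3.12, −0.72 and −0.46 gave the lowest difference of any member tested (−1.12, SE 0.58, limma adjusted p = 0.376), and the groups overlapped. Hist1h1t had 1 read in all 9 libraries.

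Among H2A genes the highest levels per length were those of the cluster genes outside chromosome 13. Hist3h2a stood at 2.45 to 3.58 log2 RPKM in +/+ and at 2.72 to 3.54 in Δ/D329A (difference 0.20, SE 0.25), and Hist2h2ac at 0.96 to 2.91 and 1.93 to 2.56 (difference 0.40, SE 0.38). Hist2h2ab stood at 2.40, 1.01, 2.43, 1.61 and 0.68 in +/+ and at 2.62, 2.36, 2.53 and 2.70 in Δ/D329A, a difference of 0.93 (SE 0.35, limma adjusted p = 0.355). The Δ/D329A values of Hist2h2ab were close together and met the upper end of the +/+ values. At the other end, Hist1h2ae had 8, 2, 6, 2 and 0 reads in +/+ and 2, 0, 1 and 0 in Δ/D329A (difference −0.94, SE 0.58), too few reads for its level to be judged.

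Among H2B genes, Hist3h2ba gave the lowest unadjusted p of any member (0.00821, limma adjusted p = 0.355). It stood at 3.60, 2.85, 2.92, 2.68 and 2.28 log2 RPKM in +/+ and at 3.79, 3.27, 3.77 and 3.73 in Δ/D329A, a difference of 0.77 (SE 0.24). Only the first +/+ library reached into the Δ/D329A range. Hist2h2bb, whose counted exons lie between 96269721 and 96279001 on chromosome 3, stood at 3.16, 2.63, 2.66, 2.32 and 1.80 in +/+ and at 3.34, 2.87, 3.30 and 3.16 in Δ/D329A (difference 0.65, SE 0.24, limma adjusted p = 0.355). With DESeq2 these genes had differences of 0.74 (adjusted p = 0.00282) and 0.62 (adjusted p = 0.00149), and with edgeR adjusted p values of 0.0182 and 0.0195. Hist1h2bc, the H2B gene with the highest mean, stood at 2.84 to 4.68 in +/+ and at 4.13 to 4.42 in Δ/D329A (difference 0.42, SE 0.36). Hist1h2bf differed by −0.62 on 16 reads in all. Hist1h2bn had the highest difference of all members, 1.13, but it rested on 8 reads in the first Δ/D329A library and at most 1 read in each of the others.

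The H3 genes had the fewest reads of the 5 classes, with 58 to 265 per library in total. Hist1h3f stood at −0.62 to 1.35 log2 RPKM in +/+ and at −0.07 to 0.52 in Δ/D329A (difference −0.01, SE 0.33). Hist1h3e differed by 0.20 (SE 0.36) and Hist2h3b by 0.28 (SE 0.42), both with overlap. Hist1h3i, which lies next to Hist1h1b, had 22, 9, 11, 4 and 7 reads in +/+ and 4, 4, 6 and 2 in Δ/D329A, a difference of −0.91 (SE 0.43, limma adjusted p = 0.355).

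The H4 genes held the highest levels of the whole family. Their log2 difference was above 0 in all 11 that had a read, with a median of 0.39. Over all genes tested it was above 0 in 10638 of 17839, which include 1724 genes without a read and with a difference of 0.37. Hist1h4m and Hist1h4n had no read. No H4 gene was called by limma, edgeR or DESeq2, and 1 of the 13, Hist2h4, was at an unadjusted p under 0.05 in the limma fit. Hist1h4c stood at 7.20, 6.25, 5.90, 6.16 and 4.06 log2 RPKM in +/+ and at 6.71, 6.03, 6.64 and 7.24 in Δ/D329A (difference 0.74, SE 0.52, limma adjusted p = 0.593). The fifth +/+ library was far below the rest, and the others overlapped with Δ/D329A. Hist1h4h stood at 5.35, 4.73, 4.57, 4.18 and 3.46 in +/+ and at 4.67, 5.45, 5.10 and 5.30 in Δ/D329A (difference 0.67, SE 0.33). Hist1h4d stood at 5.34 to 6.64 in +/+ and at 5.56 to 6.37 in Δ/D329A (difference 0.13, SE 0.32). Under the alternatives run that difference ranged from −0.031 to 0.32, so the count of 11 above 0 did not hold in all of them. Hist2h4 stood at 2.48, 1.71, 2.62, 1.77 and 1.56 in +/+ and at 2.35, 2.49, 3.19 and 3.24 in Δ/D329A, a difference of 0.79 (SE 0.28, limma adjusted p = 0.355). The third and the fourth Δ/D329A libraries were above every +/+ library at this gene and the other two were not. All H4 genes encode the same or nearly the same protein, so that many of their reads lie in sequence with near copies elsewhere, and how RNA-seq reads with several matches were placed is not given in the sources used here.

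**Figure D1:**
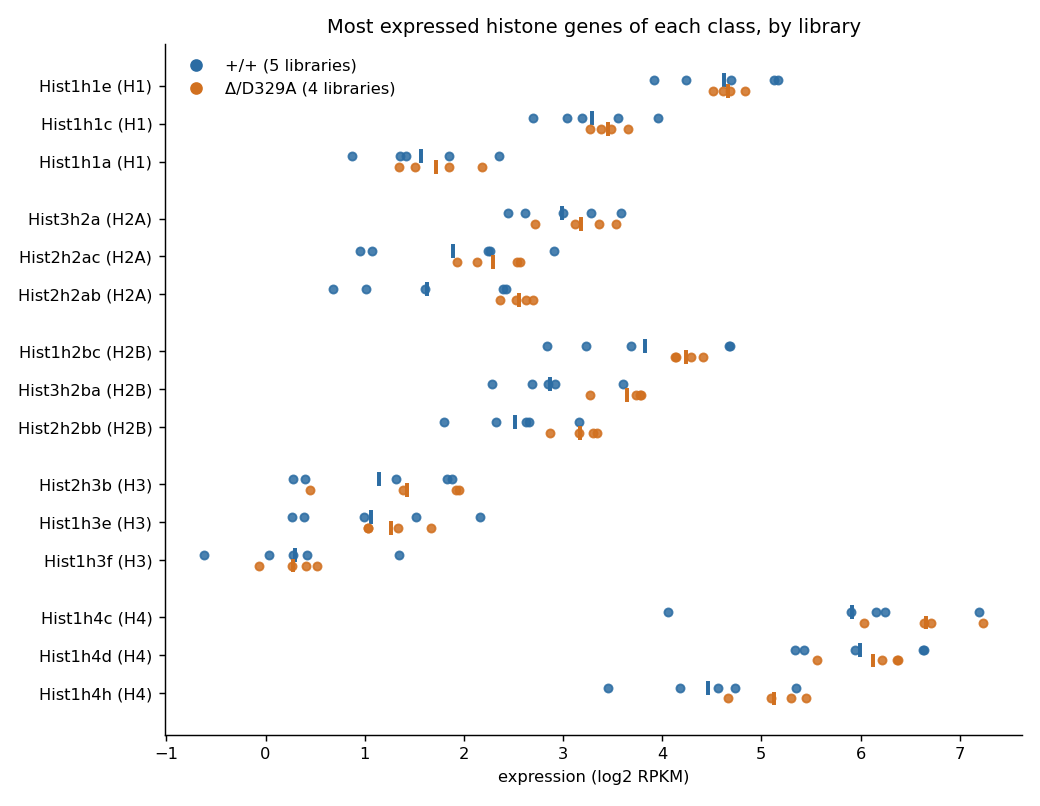
Log2 RPKM (horizontal axis) of the 3 genes with the highest mean in each histone class, 15 genes in all, with 1 point per library for 5 +/+ and 4 Δ/D329A libraries and a tick at each group mean. The groups overlap at all 15 genes, and the Δ/D329A means are higher by 0.93 at Hist2h2ab, 0.77 at Hist3h2ba, 0.74 at Hist1h4c, 0.67 at Hist1h4h and 0.65 at Hist2h2bb.

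A further 11 members had no read in any library, which allows up to 0.0376 RPM in +/+ and 0.0605 in Δ/D329A with the libraries of a genotype summed, by counting error alone. They were Hist2h2aa2, Hist2h2aa1, Hist1h2ao, Hist1h4m, Hist1h4n, Hist1h2ap, Hist1h2br, Hist1h2ah, Hist1h2ba, Hist1h2aa and Hist1h2al. In the first 7 of these, 89.9% to 100% of all stretches of 50 bases, the read length, occur elsewhere in the genome. Few or no reads could thus be placed uniquely there, and a 0 says little. The germ-line genes Hist1h2ba and Hist1h2aa are different, with 38.2% and 2.35% of such stretches repeated. The repeated gene Hist1h2bq had 46 reads in the first +/+ library and 0 or 1 in the others. Since genes without a read are listed at 0.9 reads per library, 10 of these genes passed the filter with a log2 difference of 0.37 that comes from library size alone, as it did for 1724 genes in all.

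At their promoters, most histone genes of chromosome 13 blocks 1 and 2 had higher H3K27me3 values in Δ/D329A than in +/+, though none passed the test across all promoters. Over the 54 promoters of these blocks the median level was 0.185 RPM (per tile of 2 kb, over the window from 1500 bp before to 500 bp after the start) in +/+ and 0.598 RPM in Δ/D329A, while the median of all 25952 promoters tested was 0.483 RPM in both. All 3 Δ/D329A libraries lay above all 3 +/+ libraries at 24 of the 54, and at 0 of the other 14 members, against 6.3% of all promoters. All 3 lay below at 1 member, Hist2h2ac on chromosome 3 (7.31% of all promoters). The median log2 difference was 1.13 over the 54, 0.05 over the other 14, and −0.02 over all promoters, and the median percentile of the 54 among all promoters was 31 in +/+ and 54.2 in Δ/D329A. The middle member thus lay below the middle promoter of the genome in +/+ and above it in Δ/D329A.

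No promoter in the genome was called for H3K27me3 by limma at an adjusted p under 0.05 (0 of 25952, 0%), with differences taken on log2(RPM + 0.1), a scale that understates the change of low values. The median difference over the 68 members was 0.71 on this scale and 0.15 with a pseudocount of 1 RPM. At an unadjusted p under 0.05, 26 of the 68 members were higher and 0 lower, with 13 in each block, against 4.37% of all promoters higher and 4.53% lower. Head-to-head genes and close neighbours share tiles, so the 68 promoters are not 68 independent measurements. In particular Hist1h2bh and Hist1h3f had the same values, as did Hist1h3c and Hist1h2bb, and Hist1h2ao and Hist1h2ap had no read in any library. The lowest adjusted p was that of Hist1h2bp (0.0594), and 6 members (Hist1h2bp, Hist1h2an, Hist1h2bn, Hist1h2ak, Hist1h1d and Hist1h2ae) were called when each library was centred on its median promoter (0.17% of all promoters called higher). When promoters under the median level were left out, 14 of the 24 members kept were called, all higher (1.36% of the promoters kept), but that filter kept members through their level in Δ/D329A and the count is no support. Input at the same promoters was higher in all 3 Δ/D329A libraries at 3 members (6.26% of all promoters) and lower at 3 (3.75%), and its median level over blocks 1 and 2 was 0.621 RPM in +/+ and 0.616 RPM in Δ/D329A.

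The differences were not even along the blocks. In block 1 they lay in the run of 18 members from Hist1h2bl to Hist1h2br, where a run joins starts at most 35 kb apart and where 14 were without overlap and the median difference was 1.25. In 6 members of this run 90% or more of the stretches of 75 bases are repeated elsewhere. Of these 6, 2 were without overlap, Hist1h4m and Hist1h4n, on 0 to 7 reads per library summed over tiles. The remaining 5 members of block 1, from Hist1h2ah to Hist1h2bj, had 0 without overlap and a median of −0.19. In block 2 the run from Hist1h4h to Hist1h4d had 6 of 14 without overlap and a median of 1.31, and the run from Hist1h1c to Hist1h1a had 4 of 9 and a median of 1.14. Between these lay Hist1h2be and Hist1h1e with a median of −0.08 and the 4 members from Hist1h2ac to Hist1h4c with a median of 0.20, and at the far end Hist1h2ba and Hist1h2aa had a median of −0.17, with 0 without overlap in all 3 of these runs. The difference between runs was not tested.

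Within block 1 the head-to-head pair Hist1h2bp and Hist1h2an, whose intervening sequence is printed above, did not overlap between genotypes. Hist1h2bp stood at 0.440, 0.360 and 0.347 RPM in +/+ and at 1.82, 1.83 and 1.93 RPM in Δ/D329A, on 12 to 14 and 54 to 96 reads per library summed over its overlapping tiles, where a read in the overlap counts for each tile (log2 difference 2.03, SE 0.14). Hist1h2an stood at 0.409, 0.390 and 0.248 RPM against 2.02, 1.76 and 1.70 RPM (difference 2.12, SE 0.20, limma adjusted p = 0.0849). In both the lowest Δ/D329A library was over 4 times the highest +/+ library.

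Their neighbours in the same run, Hist1h2bn and Hist1h2ak, encode H2B and H2A too. Hist1h2bn stood at 0.252, 0.150 and 0.0992 RPM in +/+ and at 1.31, 0.879 and 1.14 RPM in Δ/D329A (difference 2.2, SE 0.31), and Hist1h2ak at 0.315, 0.0600 and 0.0992 against 1.14, 0.764 and 0.965 RPM (difference 2.14, SE 0.42). The H4 genes Hist1h4j and Hist1h4k differed by 1.84 (SE 0.34) and 1.45 (SE 0.24), the latter from 0.220, 0.330 and 0.248 RPM to 1.08, 0.764 and 0.863 RPM. All of these genes had Δ/D329A libraries above every +/+ library.

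Hist1h1b had the most H3K27me3 of the members in +/+ apart from Hist3h2ba. It stood at 1.48, 0.691 and 1.41 RPM in +/+ and at 2.76, 2.33 and 2.72 RPM in Δ/D329A (difference 1.12, SE 0.28, limma adjusted p = 0.412), and its percentile among all promoters was 76.5 in +/+ and 92.4 in Δ/D329A. Its neighbour, the H3 gene Hist1h3i, stood at 0.598, 0.480 and 0.917 RPM against 1.65, 1.66 and 1.5 RPM (difference 1.19, SE 0.22). Both genes also had lower expression values in Δ/D329A, which did not pass the test.

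In block 2 the highest difference of any member on log2(RPM + 0.1) was at Hist1h2ae, the H2A gene of the second pair printed above. With a pseudocount of 1 RPM, Hist1h2an (1.07) and Hist1h2bp (1.05) of block 1 were above Hist1h2ae (0.90). Hist1h2ae stood at 0.220, 0 and 0 RPM in +/+ and at 1.48, 0.458 and 1.19 RPM in Δ/D329A (difference 2.83, SE 0.64, limma adjusted p = 0.406), from 7, 0 and 0 reads to 44, 24 and 47 by the same sum. Its partner Hist1h2bg stood at 0.283, 0.0600 and 0.0248 RPM against 1.24, 0.554 and 0.812 RPM (difference 2.24, SE 0.52). The H1 gene Hist1h1d separated more evenly, with 0.472, 0.540 and 0.545 RPM against 1.68, 1.26 and 1.83 RPM (difference 1.43, SE 0.17, limma adjusted p = 0.193). Hist1h4f did likewise, with 0.315, 0.600 and 0.446 RPM against 1.21, 1.17 and 1.42 RPM (difference 1.33, SE 0.23).

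Members with high expression were found on both sides. Hist1h4d stood at 0.220, 0.180 and 0.223 RPM in +/+ and at 0.773, 0.382 and 0.838 RPM in Δ/D329A (difference 1.26, SE 0.34), and Hist1h1c at 0.0629, 0.120 and 0.124 RPM against 0.874, 0.172 and 0.482 RPM (difference 1.42, SE 0.51). Hist1h4c, in contrast, stood at 0.189, 0.150 and 0.198 RPM against 0.168, 0.172 and 0.203 RPM (difference 0.01, SE 0.23). Hist1h1e stood at 0.189, 0.360 and 0.198 RPM against 0.101, 0.229 and 0.0508 RPM (difference −0.66, SE 0.38), and Hist1h4h differed by −0.14 (SE 0.32). The germ-line genes Hist1h2ba and Hist1h2aa, without a read of RNA, stood at 0.503 to 1.04 RPM in +/+ and 0.403 to 0.802 RPM in Δ/D329A, with differences of −0.24 (SE 0.33) and −0.10 (SE 0.23). Hist1h1t differed by 0.15 (SE 0.44).

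Outside the blocks no member was higher without overlap. Hist3h2ba, with the highest +/+ level of all members, stood at 1.26, 1.65 and 1.39 RPM in +/+ and at 1.41, 1.43 and 1.5 RPM in Δ/D329A (difference 0.02, SE 0.12). Hist1h2al stood at 1.01, 0.630 and 1.02 RPM against 0.504, 0.974 and 0.914 RPM (difference −0.15, SE 0.30). Hist2h2ac stood at 0.220, 0.0600 and 0.0744 RPM against 0.0336, 0.0573 and 0 RPM (difference −0.70, SE 0.31), which is a matter of a few reads.

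**Figure D2:**
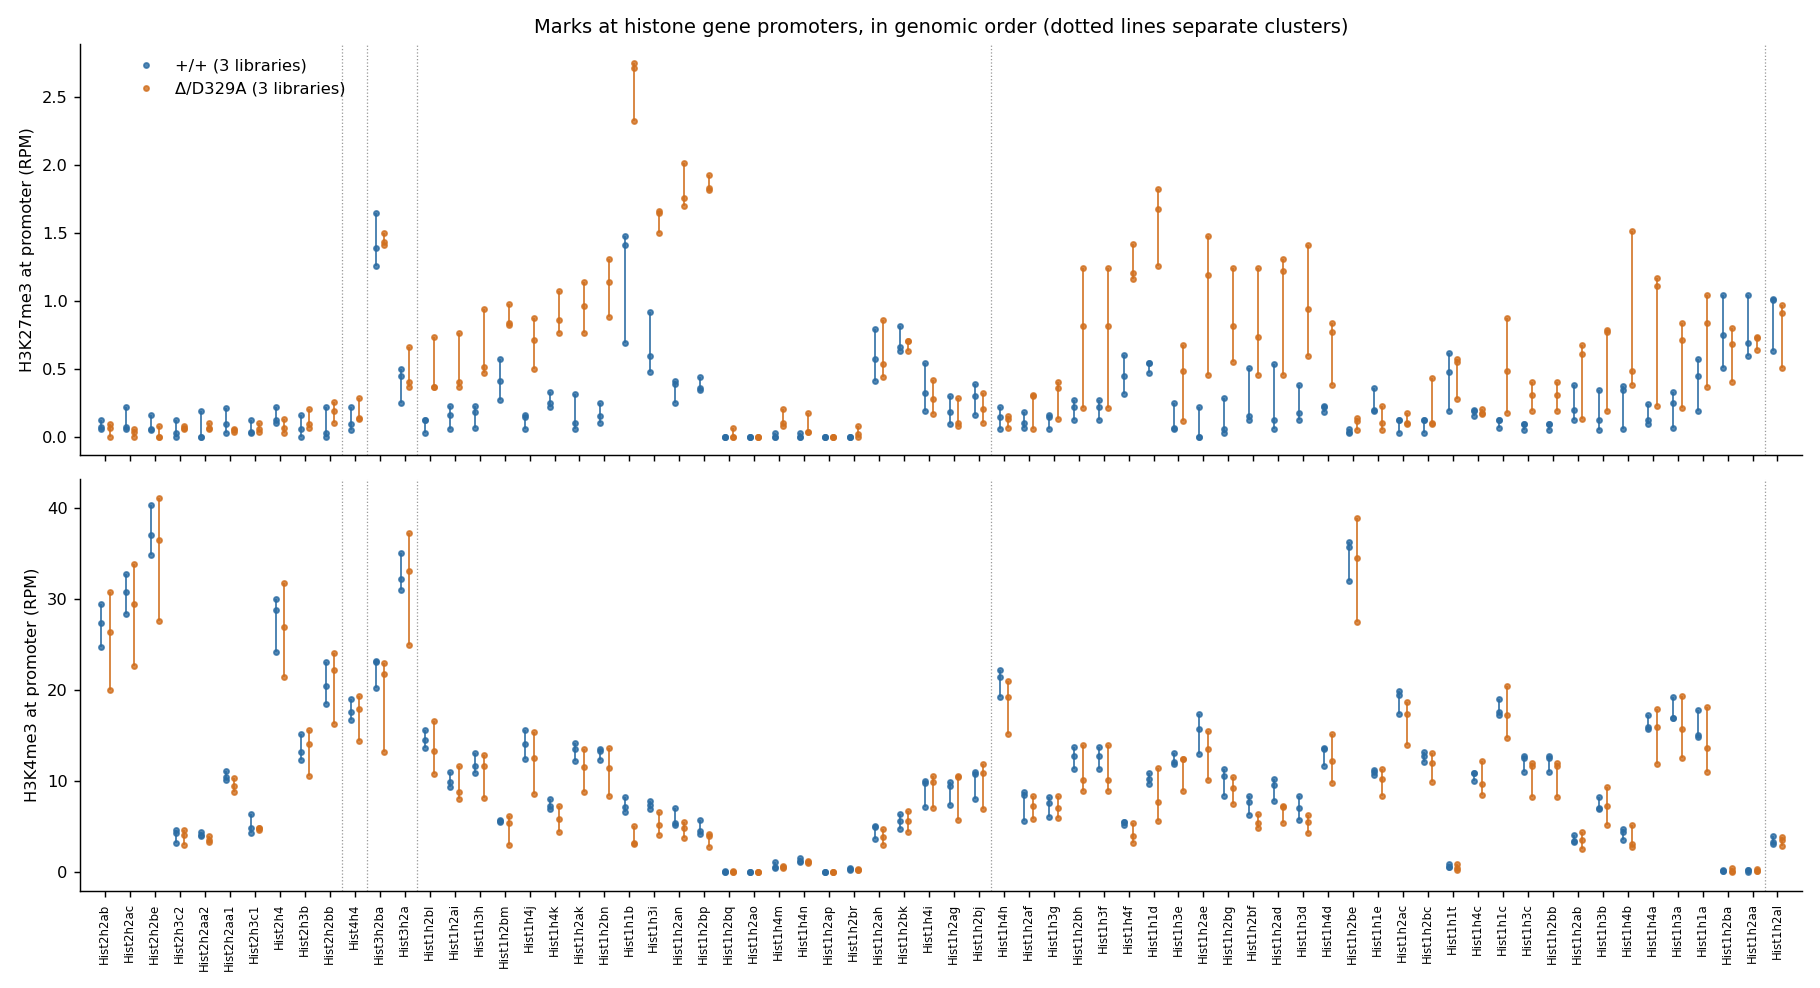
Promoter H3K27me3 (top) and H3K4me3 (bottom) in RPM for the 68 members in genomic order, with 1 point per library for 3 +/+ and 3 Δ/D329A libraries. For H3K27me3 the points of Δ/D329A sit above those of +/+ at 24 members, all in chromosome 13 blocks 1 and 2, while for H3K4me3 the points of both genotypes overlap at 64 of 68.

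The second Δ/D329A library was the lowest of the Δ/D329A libraries at 24 of the 31 members of block 2, including 13 of 14 from Hist1h4h to Hist1h4d and 9 of 9 from Hist1h1c to Hist1h1a, but at 8 of 23 in block 1. The median promoter of block 2 stood at 0.220, 0.120 and 0.149 RPM in +/+ and at 0.773, 0.210 and 0.685 RPM in Δ/D329A. Without the second Δ/D329A library, 36 members in place of 26 were at an unadjusted p under 0.05, and the share of all promoters was 11.3% in place of 8.90%. By class within the blocks, the groups did not overlap at 3 of 6 H1, 4 of 13 H2A, 6 of 15 H2B, 4 of 9 H3 and 7 of 11 H4 promoters, with median differences of 0.93, 0.50, 0.96, 1.19 and 1.25. Among the 48 block members with under 90% of stretches of 75 bases, the read length of these libraries, repeated elsewhere, 22 were without overlap and the median difference was 1.17.

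H3K4me3 at histone promoters had a median above that of all promoters in both genotypes and differed little between them. The median level was 10.1 RPM in +/+ and 9.31 RPM in Δ/D329A, against 5.64 and 4.90 RPM over all promoters. Several members lay below the median of all promoters, such as Hist1h2bp with a +/+ mean of 4.79 RPM. No promoter in the genome was called by limma (0 of 25952, 0%). The highest levels were those of Hist2h2be (40.4, 34.9 and 37.0 RPM against 27.7, 41.1 and 36.5 RPM, difference −0.11), Hist1h2be (36.3, 32.1 and 35.7 RPM against 27.5, 39.0 and 34.6 RPM, difference −0.05) and Hist3h2a (35, 31.1 and 32.3 RPM against 24.9, 37.3 and 33.1 RPM, difference −0.06), where the first Δ/D329A library was the lowest each time and the second the highest. The median log2 difference was −0.15 over members and −0.07 over all promoters, but with each library centred on its median promoter, which moved the median of all promoters to 0.14, that of the members was 0.06, and without the first Δ/D329A library it was −0.02.

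The H3K4me3 difference was above 0 at 3 of the 68 members, against 30.1% of all promoters, and none passed the test. This count turned with the scaling, to 45 members with median centring (80.9% of all promoters), and it was 31 without the first Δ/D329A library (59.0%). At an unadjusted p under 0.05 there were 4, Hist1h1b, Hist1h3i, Hist1h2bf and Hist1h2ad, all lower, against 2.5% of all promoters lower and 0.963% higher. The groups did not overlap at 4 members, Hist1h1b, Hist1h3i, Hist1h2bp and Hist1h2ad, all lower in Δ/D329A (4.22% of all promoters), and at 0 higher (1.83%). With all libraries kept, the count of members thus lay near the background. Without the second Δ/D329A library 29 members were lower without overlap (15.6% of all promoters), and without the second +/+ library 16 (7.13%). Hist1h1b stood at 7.15, 6.62 and 8.28 RPM in +/+ and at 3.14, 5.01 and 3.13 RPM in Δ/D329A (difference −0.98, SE 0.22, limma adjusted p = 1). Hist1h3i stood at 7.40, 6.92 and 7.78 RPM against 4.11, 6.63 and 5.16 RPM (difference −0.49). The Δ/D329A libraries of Hist1h1b lay below every +/+ library, and under every alternative run its difference lay between −1.21 and −0.77. At the other end, the germ-line genes had almost no H3K4me3, and Hist1h2aa gave the highest difference of the family (0.32, SE 0.50) at levels of 0.0328 to 0.376 RPM.

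H3K36me3 was low at histone promoters. The median was 0.102 RPM in +/+ and 0.176 RPM in Δ/D329A, against 0.250 and 0.292 RPM over all promoters. Limma called 6 promoters in the genome (0.0231%), none of them a member. At an unadjusted p under 0.05, 8 members were higher (5.18% of all promoters) and 1 lower (1.4%), and the groups did not overlap at 6 higher (8.99%) and 2 lower (2.67%). Without the first Δ/D329A library, 30 members were higher without overlap (18.9%), and 22 were at an unadjusted p under 0.05 (7.69%). Without the second +/+ library these counts were 7 (14.3%) and 3 (5.45%). The median log2 difference was 0.28 over members and 0.11 over all promoters. With libraries centred on the median promoter, which moved the median of all promoters to −0.10, that of the members was 0.07.

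The H3K36me3 difference was above 0 at 51 of the 68 members, against 62.3% of all promoters, at 38 with median centring (38.4%) and at 42 without the third Δ/D329A library (58.8%). The 2 members lower without overlap, near the background share, were the germ-line genes Hist1h2ba and Hist1h2aa at the edge of block 2, which had the highest levels of the mark among members. Hist1h2ba stood at 0.766, 0.593 and 0.602 RPM in +/+ and at 0.487, 0.565 and 0.472 RPM in Δ/D329A (difference −0.30, SE 0.16). Hist1h2aa stood at 0.503, 0.593 and 0.680 RPM against 0.341, 0.442 and 0.446 RPM (difference −0.44, SE 0.18, limma adjusted p = 0.747). They share part of their window. The highest difference was at Hist4h4 (0.219, 0.0474 and 0.105 RPM against 0.146, 0.590 and 0.525 RPM, difference 1.15, SE 0.50), where the first Δ/D329A library lay inside the +/+ range, and the lowest at Hist2h2bb (−0.53, SE 0.51). Hist1h2ab, the remaining member of high level, differed by 0.05.

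Over the blocks as a whole the picture for H3K27me3 was different from that at promoters. Block 1 stood at 1.78, 1.87 and 1.85 RPM per tile in +/+ and at 1.64, 1.68 and 1.75 RPM in Δ/D329A, a log2 difference of −0.11 (SE 0.03, two-sided exact permutation p = 0.1, the smallest that 3 against 3 libraries can give). The direction depended on the summary, since the median of its tiles in place of the mean gave a difference of 0.16 (exact permutation p = 0.1). Split by position, a division made after seeing the data, its 33 tiles in member promoter windows went from 0.311, 0.269 and 0.358 RPM to 0.850, 0.765 and 0.838 RPM (difference 1.40, SE 0.13), and its 295 other tiles from 1.94, 2.04 and 2.01 RPM to 1.73, 1.79 and 1.85 RPM (difference −0.16, SE 0.04). In block 1 the promoters were thus low in H3K27me3 within a region that was high, and both kinds of tile lay closer together in Δ/D329A.

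Block 2 carried less of the mark, and its mean was higher in Δ/D329A. It stood at 0.868, 0.812 and 0.893 RPM in +/+ and at 0.943, 0.989 and 0.95 RPM in Δ/D329A (difference 0.16, SE 0.05, exact permutation p = 0.1). Its 46 promoter tiles went from 0.238, 0.223 and 0.249 RPM to 0.810, 0.376 and 0.679 RPM (difference 1.32, SE 0.34), and its 357 other tiles differed by 0.10 (SE 0.06) with overlap. The flanks differed by −0.05 (1 Mb before block 1), −0.03 (between the blocks), −0.17 (1 Mb after block 2) and 0.00 (1 Mb after Hist1h2al), with exact permutation p of 0.6, 0.7, 0.4 and 0.9. For H3K4me3 the differences were −0.17 in block 1 and −0.14 in block 2 (exact permutation p = 0.3 and 0.4). Without the first Δ/D329A library they were −0.067 and −0.065, and without the second −0.29 and −0.24. H3K36me3 differed by 0.08 in block 2 and by 0.16 between the blocks, without overlap in either (exact permutation p = 0.1), and by 0.03 in block 1, where the median of tiles gave 0.25. Input overlapped between genotypes in both blocks.

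**Figure D3:**
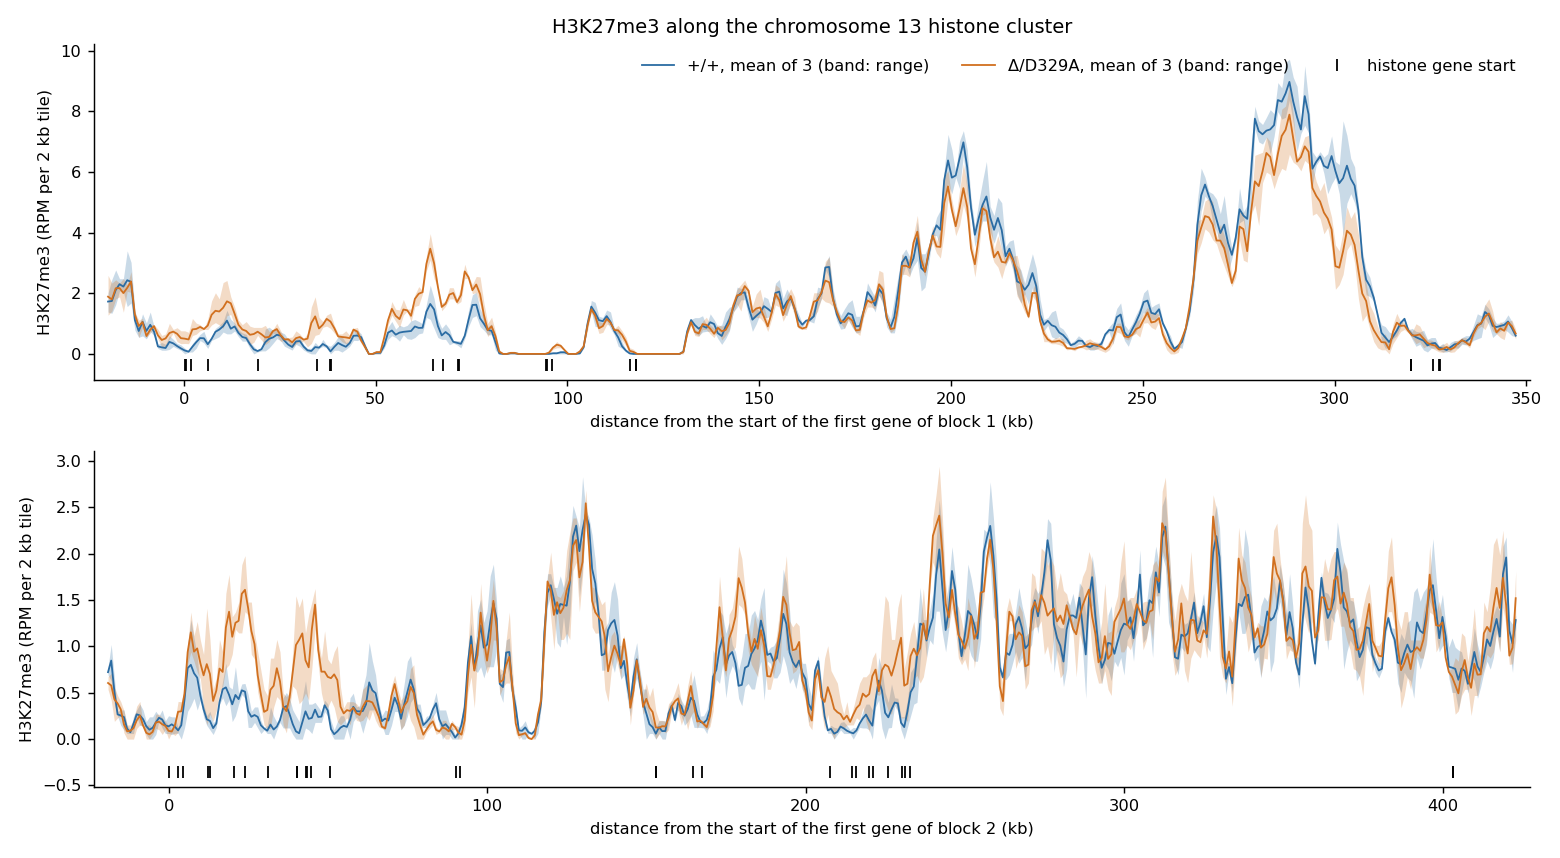
H3K27me3 in RPM per 2 kb tile along chromosome 13 blocks 1 and 2, as the mean (line) and the range (band) of 3 +/+ and 3 Δ/D329A libraries, against the distance in kb from the start of each block's first gene, with ticks at histone gene starts. Around most ticks the Δ/D329A line runs above the +/+ line, and in block 1 the peaks away from the ticks are lower in Δ/D329A.

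At the 16 other genes that start inside the blocks the differences went both ways. H3K27me3 was higher without overlap at 3 of them, Gm11274, Hfe and Slc17a4, and lower at 5, Gm11280, Zfp184, Gm11290, Gm11291 and Gm11292, against 6.3% and 7.31% of all promoters. Hfe, the haemochromatosis gene, whose start is 12400 bases from the nearest member start, stood at 0.535, 0.480 and 1.02 RPM in +/+ and at 1.78, 1.43 and 1.45 RPM in Δ/D329A (difference 1.15). Gm11291 stood at 5.60, 6.03 and 5.85 RPM against 2.62, 3.5 and 2.49 RPM (difference −1.01). Of these 16 genes, 8 had no read of RNA, and 0 of the 8 tested were called. Over the 46 genes between the blocks, most of them vomeronasal receptor genes, 4 were higher and 3 lower in H3K27me3 without overlap, near those shares.

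Across the 54 promoters of blocks 1 and 2, members with a higher H3K27me3 difference tended to have a lower H3K4me3 difference (Spearman's rho −0.54, Pearson's r −0.45). Across the 31 members with at least 100 reads, the H3K27me3 difference and the expression difference had a rho of −0.37 and an r of −0.41. The H3K27me3 difference had a rho of 0.32 with the H3K4me3 level in +/+ and of 0.13 with mean expression, over the 54. These describe the members only, since neighbours share tiles, the points of each relation share their libraries, and the marks share their animals. Hist1h1b and Hist1h3i had H3K27me3 differences above 0 and H3K4me3 and expression differences below 0, none of which passed its test and of which those of expression overlapped between genotypes, while Hist1h2bp and Hist1h2an, with higher H3K27me3 differences, had 2 and 7 reads in all 9 RNA-seq libraries.

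**Figure D4:**
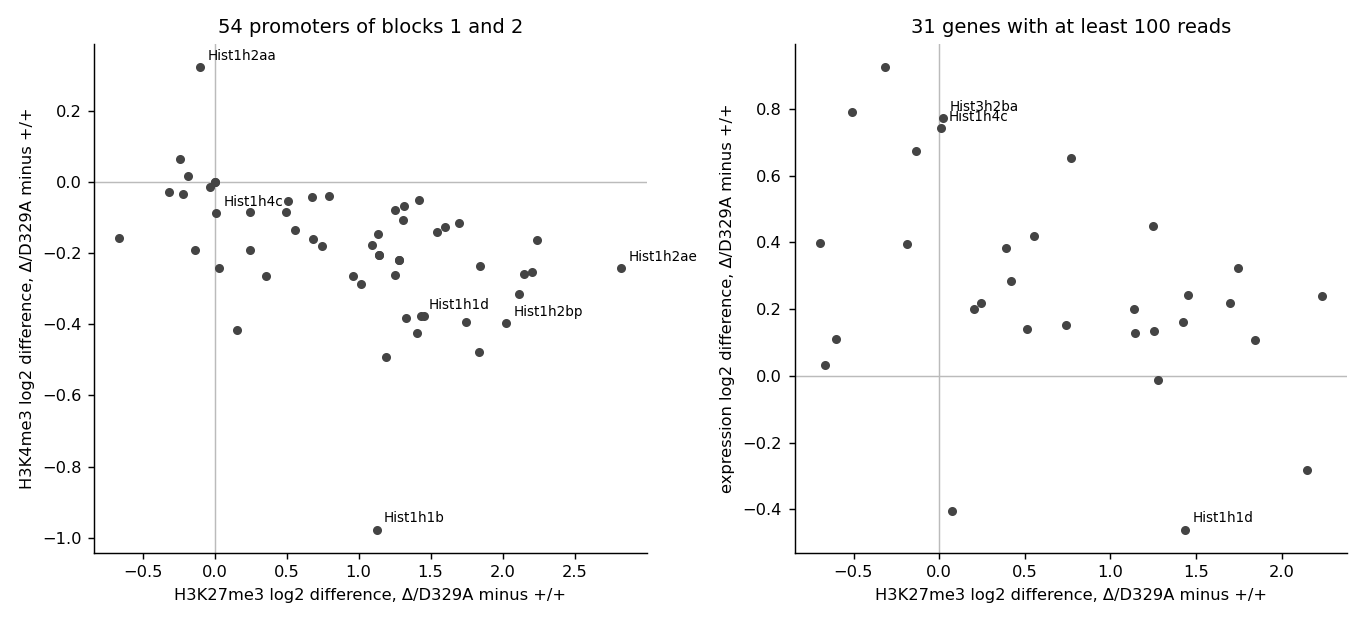
Log2 differences (Δ/D329A minus +/+) of promoter H3K27me3 against promoter H3K4me3 for 54 members of chromosome 13 blocks 1 and 2 (left) and against expression for 31 members with at least 100 reads (right), with 1 point per gene. Most points on the left lie to the right of 0 for H3K27me3 and just below 0 for H3K4me3, with Hist1h1b lowest at −0.98.

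Related genes were read from lists, and in none of them was a gene called by limma. Of the replacement histone genes, which supply histones outside S phase, 6 of 10 tested had a difference above 0, from H3f3a (−0.35) to H1fx (0.43), and H3K27me3 at their promoters was higher without overlap at 1 of 11, H1fx, and lower at 1, H3f3b. Of the genes for histone transcription and 3' end processing, 7 of 15 were above 0. Npat, the coactivator of the family, stood at 1.87 to 2.36 log2 RPKM in +/+ and at 1.40 to 1.90 in Δ/D329A (difference −0.42, SE 0.16, limma adjusted p = 0.355), and E2f1 differed by 0.52. Of the histone chaperones, 7 of 15 were above 0, from Asf1a (−0.28) to Chaf1a (0.32). Of the genes of S phase and mitosis, 10 of 16 were above 0, from Birc5 (−1.06) to Mcm5 (0.44), and their summed level was 13.5 to 23.9 RPKM in +/+ and 17.3 to 22.6 in Δ/D329A, so the genotypes overlapped. H3K27me3 at the promoters of these S phase and mitosis genes was higher without overlap at 0 of 24 and lower at 6, against 7.31% of all promoters lower, with a median difference of −0.45. It was higher at 0 and lower at 1 of the 16 processing genes, and likewise of the 17 chaperones.

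Oligodendrocyte precursors are the main dividing cells of the adult brain, and 0 of their 6 genes tested had a difference above 0. Pdgfra, their growth factor receptor, stood at 2.45 to 3.19 log2 RPKM in +/+ and at 2.10 to 2.49 in Δ/D329A (difference −0.55, SE 0.17, limma adjusted p = 0.355), and Olig1 differed by −0.12. Summed levels of the list were 28.2 to 65.0 RPKM in +/+ and 28.3 to 39.5 in Δ/D329A. Hypothalamic neuron genes summed to 432 to 907 RPKM in +/+ and 490 to 708 in Δ/D329A, from Pomc (−1.06) to Avp (0.33), and 5 of 14 were above 0. Of markers of other tissue, Ttr of choroid plexus was higher by 1.82 (SE 0.40, limma adjusted p = 0.187), at −1.45 to 0.62 log2 RPKM in +/+ and 0.76 to 2.0 in Δ/D329A, while Kl of the same list differed by −0.43 and the list summed to 4.0 to 5.79 RPKM in +/+ and 4.29 to 7.54 in Δ/D329A. The globin gene Hba-a2 differed by 0.77 and its list summed to 13.4 to 42.4 RPKM in +/+ and 34.3 to 45.9 in Δ/D329A. Microglia genes ran from P2ry12 (−0.22) to Aif1 (0.49), endothelial genes from Slco1a4 (−0.30) to Cldn5 (0.26), and pituitary genes from Prl (−1.06) to Gh (1.93), the last from −4.14 to 2.31 log2 RPKM within +/+. Above 0 were 3 of 3 genes tested in the list of Hba-a2, 5 of 6 microglia, 4 of 6 endothelial, 2 of 5 choroid plexus and 1 of 4 pituitary genes. At an unadjusted limma p under 0.05, 2 genes of the Hba-a2 list were higher (4.61% of all genes tested). Lower at that threshold were 3 of 14 hypothalamic neuron, 1 of 6 precursor and 1 of 15 processing genes (3.02% of all genes tested). The choroid plexus list had 1 of 5 higher and 1 lower, and the microglia, endothelial and pituitary lists had 0. The part of these lists in the histone gene values was not tested.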

How the data were processed

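RNA-seq values came from 5 +/+ and 4 Δ/D329A hypothalami, with 1 low-quality Δ/D329A library dropped by the authors, and ChIP-seq values from 3 libraries per genotype for each mark and for input. RNA-seq reads were processed by the authors with TrimGalore and HiSat2 against GRCm38, and they deposited log2 RPKM per gene from the RNA-seq pipeline of SeqMonk, with a gene without a read set at 0.9 reads. For ChIP-seq the authors mapped the reads with Bowtie and deposited a signal of reads per 1000000 reads (RPM) in tiles of 2000 bp every 1000 bp, neither divided by tile length nor corrected for input. ChIP-seq library totals are of uniquely mapped reads, per the authors' reporting summary. The study describes opposite-strand specific libraries, but how the counting of RNA reads treated strand and reads with several matches is not given in the sources used here. Bisulfite data were not analysed here.

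Whole counts of reads were recovered from the deposited values within 0.02 reads for 25962 of 25965 genes, the other 3, none a member, with at least 53218 reads in a library, lying within 0.205 reads, and for all tiles within 0.01 reads. Expression was tested with limma 3.58.1 in R 4.3.3 (variance trend, two-sided, Benjamini-Hochberg adjusted p under 0.01) on the deposited log2 RPKM of genes that reached 0.1 RPKM in 4 or more libraries, without the 13 mitochondrial genes. With DESeq2 1.42.0 and edgeR 4.0.16 the recovered counts were tested as alternatives. Marks were averaged over the tiles centred from 1500 bp before to 500 bp after a start, usually 2, and tested with limma on log2(RPM + 0.1) at an adjusted p under 0.05, a scale that understates changes of low values. Blocks and flanks were compared by exact permutation of libraries on log2 mean RPM. SE is the standard error of the log2 difference, and differences are Δ/D329A minus +/+. The p-values measure the spread between these libraries. The fits were tested on simulated data. Intervals for counts cover counting error only.

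The family, the lists and the tests were chosen with earlier results of these data known. Genes named by rule are those called, the 3 with the highest mean expression per class, the 5 with the highest and 5 with the lowest expression difference, the highest and lowest difference and the 3 highest +/+ levels for each mark, those without a read, and the extremes of each list. Others named were chosen after their values were seen. Alternatives were other pseudocounts and filters, median centring, ratio to input, tiles within 1000 bp, the replicate number as a block, medians over tiles, and leaving out each library. Correlations between samples with the same number ran from −0.26 to 0.23 and showed no clear pairing. Descriptions were computed with scipy 1.17.1, pandas 2.3.3 and numpy 2.4.6 under Python 3.11.15.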

Additional observations from a re-analysis of the deposited data

Results flagged for a closer look

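In the 4 Δ/D329A RNA-seq libraries, 1 library stood far from the other 3 at 3 of the members described. At Hist3h2ba the second library was lowest, at 3.27 log2 RPKM on 63 reads, with the next at 3.73. At Hist1h2bn the first library was highest, at 0.52 on 8 reads, with the next at −2.0. At Hist1h1b the second library was lowest, at −3.12 with 0 reads, with the next at −0.72. These were 3 of 52 groups of values examined, and chance alone marks about 5% of groups in this way.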

How the results depend on the processing

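For expression, the count of members at an unadjusted p under 0.05 (4 with limma) was 16 without a filter, 9 with median centring and 7 with edgeR, against 34.9%, 13.8% and 16.2% of all genes tested (7.62% with limma), and DESeq2 called 2 members where limma called 0. With a filter at 0.5 RPKM the count was 6 of the 39 members tested, against 6.15% of all genes tested. For H3K4me3 (4) it was 2 with a pseudocount of 1 RPM (3.65% of all promoters), 2 with the filter at the median level (2.67%), 9 with median centring (18.7%) and 7 (5.04%) with the libraries' mitochondrial coverage (high in the third +/+ and the second and the third Δ/D329A libraries) as a block, which was added after seeing the data. For H3K27me3 the filter at the median level left 24 members with a median of 1.37. Of these, 17 were at an unadjusted p under 0.05 (12.1%), and 14 were called, all higher (1.36% of the promoters kept). Further, 14 did not overlap, for which no share over all promoters kept was computed. Median centring called 6, and a pseudocount of 1 RPM gave a median of 0.15 over the 68 members, against 0.71 with 0.1 RPM. For H3K36me3 that filter left 4 members, 1 at an unadjusted p under 0.05 (7.25%) and 0 without overlap, with a median of −0.13.

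The median H3K4me3 difference of members was 0.060 with median centring. Members without overlap numbered 9 (ratio to input) and 2 (tiles within 1000 bp) for H3K4me3 lower, and 10 (ratio to input) and 3 (median centring) for H3K36me3 higher. The shares of all promoters without overlap were not computed under these settings, so these counts cannot be set against a background. By the median of tiles, block 1 differed by 0.19 in H3K4me3 and by 0.16 in H3K27me3, both of the opposite sign to those by the mean. By the mean, its promoter tiles, separated after seeing the data, differed by 1.40 in H3K27me3. By the median of tiles H3K36me3 in block 1 differed by 0.25 and H3K27me3 after block 2 by −0.30. The flank after Hist1h2al differed by −0.028 as a ratio to input and by −0.013 by the median of tiles. In the lists 1 gene was called with median centring (Cartpt), 3 with edgeR (Cartpt, Pdgfra and Sim1) and 4 with DESeq2 (these and Ttr). Signs also turned for Hist1h1e expression (−0.0068 with edgeR, −0.0056 with DESeq2), for H3K4me3 with median centring at Hist3h2a (0.15), Hist1h2be (0.15, and 0.24 as a ratio to input) and Hist2h2be (0.10), for H3K27me3 at Hist1h2al (0.21 as a ratio to input) and for H3K36me3 at Hist1h2ab (−0.028 as a ratio to input, −0.16 with median centring). Where no construction is named, the cause was not tested.

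With the replicate number as a block, which for expression also leaves out the fifth +/+ library as it has no Δ/D329A library of its number, 9 members were at an unadjusted p under 0.05 for expression, 1 for H3K4me3, 27 for H3K27me3 and 7 for H3K36me3, against 8.38%, 2.96%, 9.22% and 6.27% of all features tested, while without the fifth +/+ library and with no block it was 8 (9.05%) for expression. In the blocked fit expression differed by −0.024 at Hist1h1a, −0.14 at Hist1h1e and −0.0068 at Hist1h4d, the same as without that library and no block. Samples with the same number had correlations of 0.13, −0.01, −0.07 and −0.06 (expression), 0.07, −0.26 and 0.23 (H3K4me3), 0.05, 0.08 and 0.01 (H3K27me3) and 0.01, −0.00 and 0.07 (H3K36me3), which showed no clear pairing by number. Pairing by litter or processing batch was not tested.

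With each library left out in turn, members at an unadjusted p under 0.05 ranged from 3 to 17 for expression (17 without the first Δ/D329A, 14 without the third +/+ library, against 17.2% and 13.1% of all genes), from 1 to 11 for H3K4me3 (11 without the second Δ/D329A library, against 7.17% of all promoters, 1 without the first or the third +/+ or the first Δ/D329A library), from 22 to 36 for H3K27me3 (36 against 11.3%) and from 3 to 22 for H3K36me3 (22 without the first Δ/D329A, 3 without the second +/+ library, against 7.69% and 5.45%). The medians ranged from 0.06 (without the fifth +/+ library) to 0.32, −0.26 to −0.02, 0.60 to 0.98 and 0.10 to 0.59. Members without overlap ranged from 25 to 36 for H3K27me3 higher, 4 to 29 for H3K4me3 lower and 6 to 30 for H3K36me3 higher, against 9.13% to 13.4%, 5.55% to 15.6% and 13.3% to 18.9% of all promoters. Leaving out a library can only keep or add promoters without overlap, so these counts could not fall below those with all libraries. The highest counts came without the second Δ/D329A library for H3K27me3 and H3K4me3 and without the first for H3K36me3. No member was called by limma in any of these fits. H3K27me3 ranged from −0.14 to −0.09 in block 1 and from 0.13 to 0.19 in block 2, and in the flanks from −0.093 to 0.011 (before block 1), −0.073 to 0.011 (between), −0.31 (without the second Δ/D329A library) to −0.076 (without the first; after block 2) and −0.068 to 0.068 (after Hist1h2al). Ranges that crossed 0 were those of expression at Hist1h1a (−0.024 to 0.35), Hist1h1e (−0.14 to 0.17), Hist1h3f (−0.24 to 0.25) and Hist1h4d (−0.031 to 0.32), H3K4me3 at Hist1h2aa (−0.056 to 0.65), Hist3h2a (−0.19 to 0.10), Hist1h2be (−0.17 to 0.084) and Hist2h2be (−0.23 to 0.052), H3K27me3 at Hist1h2al (−0.35 to 0.11) and Hist3h2ba (−0.062 to 0.12), and H3K36me3 at Hist1h2ab (−0.18 to 0.21). Depth limits H3K27me3 at promoters, where most members had under 20 reads per +/+ library summed over overlapping tiles.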
